A study of Mus musculus with 11 samples.

Results

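The 8 genes described here, Fmod, Dcn, Aspn, Bgn, Lum, Omd, Prelp and Ogn, encode small leucine-rich proteoglycans, and all 8 were among the 16755 genes listed for mouse maxillary molar tooth germs at E14.5 (embryonic day 14.5). Fmod (fibromodulin) was chosen by its rise in the Cilk1 knockout in these same libraries, so its difference between Cilk1-/- and wild type is given as a description with no test. The other 7 were taken because they belong to its family, although results of these data were already known when the family was chosen. RNA was sequenced in bulk from 3 genotypes: wild type (Cilk1+/+, 4 libraries), Cilk1-/- (4 libraries) and Cilk1-/-;PCS1-MRCS1△/△, called the compound mutant (3 libraries). Each replicate pooled n = 6, and the sources used here do not say whether germs or embryos were counted. Cilk1, which encodes ciliogenesis associated kinase 1, was deleted by excising exon 6 with EIIa-Cre, a transgene that acts in the early embryo, so the gene is lost throughout the animal. The compound mutant carries the same loss of Cilk1 and in addition lacks 70 kb of genome from PCS1 to MRCS1, including both of these oral enhancers of Shh. No group with that deletion alone was among the 11 libraries.

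Small leucine-rich proteoglycans are secreted proteins of the extracellular matrix whose curved core of leucine-rich repeats binds fibrillar collagen. They limit and order the lateral growth of collagen fibrils, and several of them also bind TGF-beta family growth factors. The family is divided by sequence into classes. Decorin (Dcn) and biglycan (Bgn) are class I members that carry chondroitin or dermatan sulfate chains, while asporin (Aspn), also of class I, usually carries none. Fibromodulin, lumican (Lum), osteomodulin (Omd) and Prelp are class II members, several of which carry keratan sulfate and sulfated tyrosines. Osteoglycin (Ogn) is a class III member. In developing teeth and jaws these genes are known mainly from connective tissue mesenchyme, the dental follicle, the later periodontal ligament and bone.

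The deposited values are on a log2 scale, probably log2(FPKM + 1), and every level and difference below is on that scale unless it is called back-transformed. Back-transformed values, sums and shares assume that formula, which cannot give the values below 0 that 257 genes have. A gene was called where limma gave a Benjamini-Hochberg adjusted p under 0.05 over all 16755 genes and the fold change reached 1.5. The targeted gene, listed under its older symbol Ick, ranged from 3.45 to 3.60 in wild type, from 2.72 to 2.86 in Cilk1-/- and from 2.60 to 2.67 in the compound mutant, so all 7 mutant libraries were lower than every wild-type library. Read depth is unknown, because the values are not counts, and back-transformed values summed to between 339971 and 364616 per library. Compound mutant library 1 stood apart on the leading principal component, at -48.5 against -6.63 to 11.2 for the other 10. Libraries of wild type and Cilk1-/- that carry the same number deviated from their genotype means in opposite directions over all genes (Pearson's r from -0.89 to -0.74, n = 4 numbers), so they do not behave as independent samples. Where a fit that blocks on the replicate number (replicate block) changed a call, its value is given too. In it each compound mutant library is placed with the libraries of its number, a match that these correlations do not cover. In bulk RNA, fewer cells of a type and less RNA per cell cannot be told apart.

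The 8 genes lie at 4 loci in GRCm38 (mm10). Prelp (chr1:133910304-133921414, minus strand) and Fmod (chr1:134037254-134048277, plus strand) share a stretch of chromosome 1. Dcn (chr10:97479609-97518143) is followed by Lum (chr10:97565128-97572703) on the plus strand of chromosome 10. Aspn (chr13:49544443-49567565), Omd (chr13:49582462-49592822) and Ogn (chr13:49608046-49624501) stand in a row on the plus strand of chromosome 13, and Bgn (chrX:73483602-73495933) is on the X chromosome. The 250 bases upstream of the annotated start are shown for Fmod and Aspn, members with raised levels in Cilk1-/-, and for Bgn, a member that was not called. The sequences are from RefSeq (GRCm38.p6), which gave promoters for 6 of the 8 members and none for Dcn or Lum. Capitals mark matches on either strand to a TATA box (TATAAA), an E-box (CANNTG) or a GC box (GGGCGG).
Fmod, chr1:134037004-134037253, plus strand: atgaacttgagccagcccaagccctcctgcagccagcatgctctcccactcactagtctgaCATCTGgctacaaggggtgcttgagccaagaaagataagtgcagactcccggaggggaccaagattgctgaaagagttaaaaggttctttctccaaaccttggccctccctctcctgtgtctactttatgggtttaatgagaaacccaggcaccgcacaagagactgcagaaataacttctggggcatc
Aspn, chr13:49544193-49544442, plus strand: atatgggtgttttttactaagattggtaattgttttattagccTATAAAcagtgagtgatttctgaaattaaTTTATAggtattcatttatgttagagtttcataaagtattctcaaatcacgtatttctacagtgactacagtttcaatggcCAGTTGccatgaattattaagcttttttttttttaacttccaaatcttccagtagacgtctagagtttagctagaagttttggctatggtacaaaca
Bgn, chrX:73483351-73483600, plus strand: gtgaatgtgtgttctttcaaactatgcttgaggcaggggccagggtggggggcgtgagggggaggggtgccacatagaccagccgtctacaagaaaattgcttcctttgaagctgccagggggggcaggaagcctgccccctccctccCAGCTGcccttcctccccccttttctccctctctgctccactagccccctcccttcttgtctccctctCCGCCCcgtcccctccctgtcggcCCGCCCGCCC
The Aspn sequence was the most AT-rich of the 6, with a GC content of 30.0%, and 1.47% of the 32851 promoters searched had a lower one. It held TATA box letters at -207 and -178, a motif found in 12.4% of all promoters, and an E-box at -97. The Fmod sequence (GC 51.2%) held a single E-box match, at -189, and the Bgn sequence (GC 64.4%) held an E-box at -102 and GC boxes at -34, -10 and -6, of which those at -10 and -6 overlap. An E-box was found in 66.2% and a GC box in 32.7% of all promoters. No match to a Gli motif (GACCACCCA), a SMAD motif (GTCTAGAC) or an AP-1 motif (TGANTCA) was found in the 6 windows, and these letters were found in 0.225%, 0.167% and 6.75% of all promoters. These matches are descriptions of the letters in each window and do not show binding.

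The order of mean levels was the same in the 3 genotypes: Bgn was highest, followed by Lum, Aspn, Dcn, Ogn, Fmod, Omd and Prelp. In wild type, Bgn averaged 7.39 ± 0.114 (SD, n = 4) and Prelp 2.63 ± 0.0953 (SD, n = 4). Aspn and Dcn overlapped in wild type, as did Fmod and Omd, while the other neighbours in the order did not overlap. In Cilk1-/- the ranges of Bgn and Lum and of Lum and Aspn overlapped as well. The order compares genes on a per-length scale only if the deposited values are FPKM, which the methods name without saying that they were the values deposited.

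Fmod, a class II proteoglycan best known from tendon, measured 3.94, 3.68, 3.68 and 3.82 in wild-type libraries 1 to 4 and 4.26, 5.03, 5.06 and 4.84 in Cilk1-/- libraries 1 to 4. All 4 Cilk1-/- libraries were above all 4 wild-type libraries, and Cilk1-/- library 1 was the closest to wild type. The mean was 4.80 ± 0.370 (SD, n = 4) in Cilk1-/- against 3.78 ± 0.128 (SD, n = 4) in wild type, a difference of 1.02 (SE 0.185) or 2.02-fold on that scale. By this difference Fmod ranked 3 of the 26 genes called higher, below Cbln4 (1.76) and C1qtnf3 (1.08). These values chose the gene and are given without a test.

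Dcn, the class I proteoglycan decorin, measured 6.19, 5.93, 5.94 and 5.91 in wild type and 6.23, 6.77, 6.90 and 6.79 in Cilk1-/-. The groups did not overlap, but Cilk1-/- library 1 lay only just above wild-type library 1. Dcn rose by 0.68 (SE 0.145), or 1.60-fold, with an adjusted p of 0.0418 in limma and of 0.161 with the replicate block.

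Aspn, the class I member asporin, measured 6.09, 5.88, 6.19 and 5.93 in wild type and 6.45, 6.94, 6.81 and 6.95 in Cilk1-/-. Every Cilk1-/- library was above every wild-type library. Aspn rose by 0.76 (SE 0.135), or 1.70-fold, with an adjusted p of 0.0233 in limma and of 0.134 with the replicate block.

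Bgn, the class I proteoglycan biglycan and the most abundant of the 8, measured 7.54, 7.27, 7.39 and 7.36 in wild type and 7.25, 7.69, 7.62 and 7.62 in Cilk1-/-. Cilk1-/- libraries 2 to 4 were above all wild-type libraries and library 1 was below them all. The difference was 0.16 (95% confidence interval -0.12 to 0.43, adjusted p = 0.512 in limma).

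Lum, a class II keratan sulfate proteoglycan, had a similar arrangement, at 7.20, 6.73, 6.88 and 6.70 in wild type and 6.64, 7.30, 7.24 and 7.31 in Cilk1-/-. Again Cilk1-/- library 1 was the lowest of all 8 and wild-type library 1 the highest of its group. The difference was 0.25 (95% confidence interval -0.17 to 0.66, adjusted p = 0.497 in limma).

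Omd, a class II member known from mineralised tissue, was the most variable of the 8. It measured 3.99, 3.71, 3.94 and 3.24 in wild type and 3.60, 4.32, 4.34 and 4.72 in Cilk1-/-, and the groups overlapped. The difference of 0.52 had a 95% confidence interval of -0.43 to 1.48 (adjusted p = 0.539 in limma).

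Prelp, a class II member whose basic N-terminal region binds heparan sulfate, was the least abundant, at 2.54, 2.65, 2.56 and 2.75 in wild type and 2.88, 3.19, 3.19 and 2.98 in Cilk1-/-. Ogn, the class III member, measured 5.35, 5.17, 5.51 and 5.21 in wild type and 5.58, 5.72, 5.56 and 5.70 in Cilk1-/-. For both genes every Cilk1-/- library was above every wild-type library, but neither was called. The difference was 0.44 for Prelp (95% confidence interval -0.04 to 0.91, adjusted p = 0.280 in limma) and 0.33 for Ogn (95% confidence interval -0.02 to 0.68, adjusted p = 0.273 in limma).

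**Figure D1:**
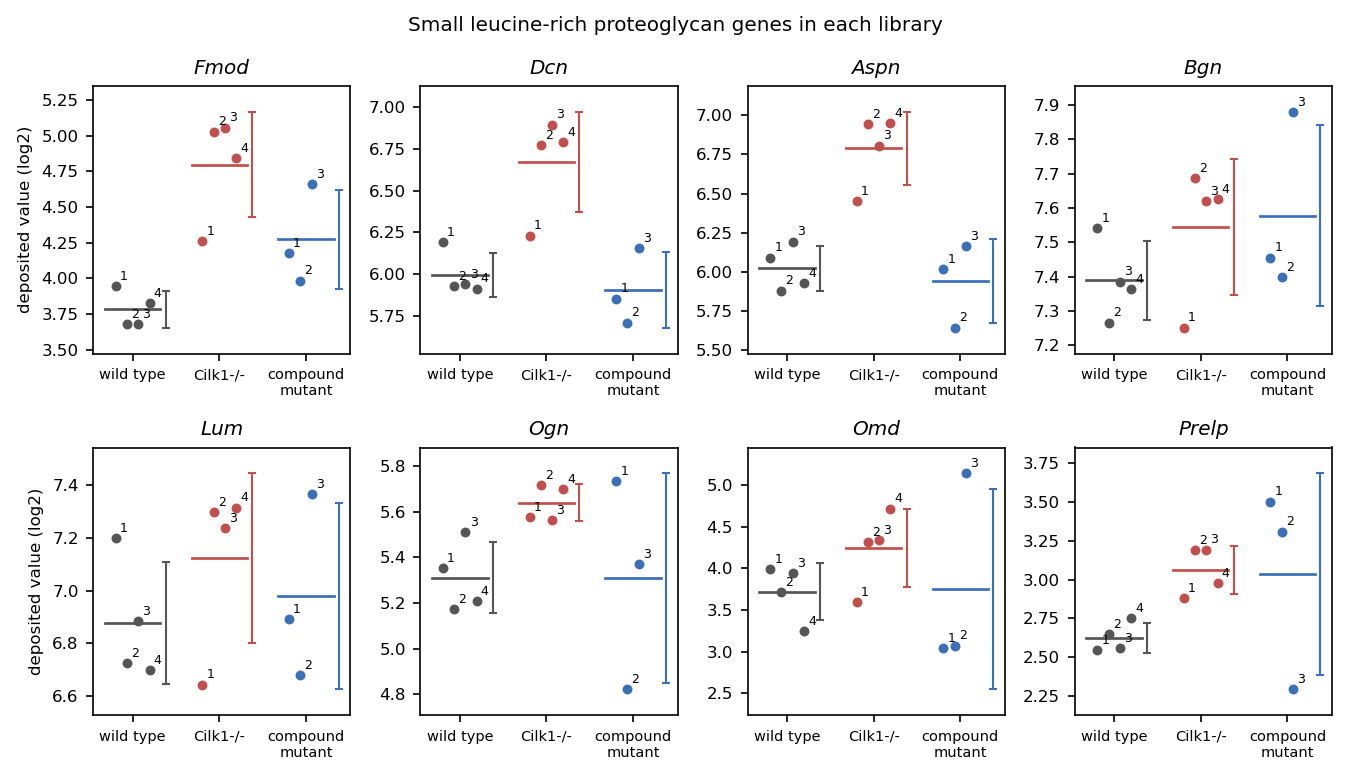
Deposited log2 value (y axis) of each of the 8 genes in every library of the 3 genotypes (x axis), with 1 point per library and its replicate number beside it. Horizontal lines are genotype means and bars are 1 SD, and the 4 Cilk1-/- libraries lie above all wild-type libraries for Fmod, Dcn, Aspn, Ogn and Prelp.

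Among the 7 genes other than Fmod, 2 were called higher in Cilk1-/- (Dcn and Aspn), where 0.155% of all genes were called higher. These 7 are not independent of the choice of Fmod, because results were known when the family was chosen and several vary with Fmod. In deviations from genotype means, Pearson's r with Fmod was 0.955 for Dcn, 0.944 for Bgn, 0.902 for Lum, 0.778 for Aspn and 0.733 for Omd. It was 0.257 for Ogn and -0.315 for Prelp. None was called lower, where 0.215% of all genes were. Fmod was chosen by this rise and is left out of the counts. Of these 7 the mean was higher in Cilk1-/- for 7, where 51.2% of all genes had a higher mean, and their median difference was 0.44 against 0.00320 over all genes. The libraries did not overlap, with Cilk1-/- higher, for 4 of the 7 and for 10.2% of all genes. With the replicate block none of the 7 was called (0.0119% of all genes were called higher), and 2 of the 7 had an unadjusted p under 0.05 and reached a fold change of 1.5, as 0.382% of all genes did on the higher side. Several calls also depended on single libraries. Among the 7, leaving out any of wild-type libraries 2 to 4 or Cilk1-/- libraries 2 to 4 left 0 calls. Leaving out wild-type library 1 left Aspn, and leaving out Cilk1-/- library 1 left Dcn and Aspn.

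The difference between same-numbered libraries varied most between number 1 and the others. For Fmod it ran from 0.318 to 1.38, for Aspn from 0.362 to 1.06 and for Dcn from 0.0394 to 0.957, with Cilk1-/- higher in 4 of 4 numbers. For Lum, Bgn and Omd it was positive in 3 of 4 numbers and negative in number 1. Libraries 1 to 3 and library 4 carry different protocol text in the labels, and the compound mutant libraries share that of library 4. Within libraries 1 to 3 the difference was 1.02 for Fmod, 0.68 for Aspn and 0.61 for Dcn, with no overlap between genotypes (n = 3 each). Between library 4 of each genotype it was 1.02 for Fmod, 1.02 for Aspn and 0.88 for Dcn, with no replicate.

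**Figure D2:**
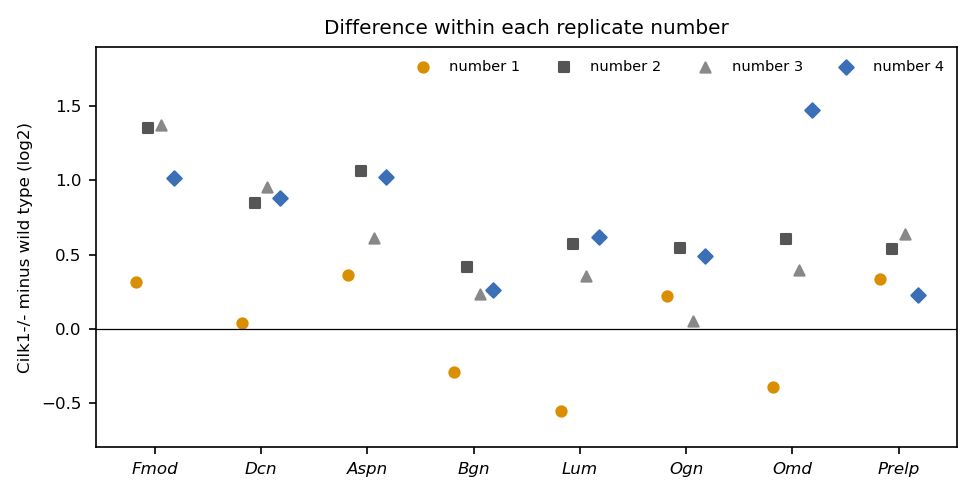
Difference between the Cilk1-/- and the wild-type library of the same replicate number (y axis, log2) for each of the 8 genes (x axis), with 1 symbol per number. Number 1 gives the lowest difference for 6 of the 8 genes and is below 0 for Bgn, Lum and Omd.

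In the compound mutant none of the 7 genes other than Fmod was called against wild type in either direction, where 0.615% of all genes were called higher and 0.633% lower. This comparison uses the wild-type libraries by which Fmod was chosen. Fmod measured 4.17, 3.98 and 4.66 in compound mutant libraries 1 to 3, all below Cilk1-/- libraries 2 to 4. All 3 were above the highest wild-type library (3.94), and the difference was 0.49. Fmod was chosen by its rise over these wild-type values, which favours a higher value here, so this difference is a description with no test. The other 7 genes all overlapped wild type, and 8.92% of all genes lay without overlap on the higher side.

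Dcn measured 5.85, 5.71 and 6.15 and Aspn 6.02, 5.65 and 6.16 in the compound mutant. Both overlapped the wild-type range. The mean of Aspn (5.94) lay within that range, and the mean of Dcn (5.90) lay just below the lowest wild-type library (5.91). The difference from wild type was -0.09 for Dcn (95% confidence interval -0.43 to 0.26) and -0.08 for Aspn (95% confidence interval -0.40 to 0.24), each with an adjusted p of 0.757 in limma.

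Bgn measured 7.46, 7.40 and 7.88, Lum 6.89, 6.68 and 7.37 and Ogn 5.73, 4.82 and 5.37 in the compound mutant. Library 3 held the highest value of all 11 libraries for both Bgn and Lum. Differences from wild type were 0.19 for Bgn, 0.10 for Lum and -0.00198 for Ogn, all within the overlap of the groups (adjusted p = 0.380, 0.782 and 0.997 in limma).

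Omd and Prelp separated compound mutant library 3 from the other two, in opposite directions. Omd measured 3.04, 3.07 and 5.14, so library 3 was the highest of all 11 and the others were the lowest. Prelp measured 3.50, 3.31 and 2.30, so library 3 was the lowest of all 11 and the others were the highest. Their differences from wild type were 0.03 for Omd and 0.41 for Prelp (adjusted p = 0.978 and 0.277 in limma), with SDs of 1.20 and 0.648 in the compound mutant (n = 3). Without library 3 Prelp was called higher, by 0.78 (adjusted p = 0.00461 in limma), and the difference for Omd was -0.66. Of the 7 genes other than Fmod the mean was higher in the compound mutant for 4, where 49.4% of all genes had a higher mean, and their median difference was 0.03.

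Against Cilk1-/-, Dcn and Aspn were lower in the compound mutant. Aspn fell by 0.85 (SE 0.146, adjusted p = 0.0191 in limma) and Dcn fell by 0.77 (SE 0.157, adjusted p = 0.0344 in limma). All 3 compound mutant libraries were below all 4 Cilk1-/- libraries for both, at no more than 6.16 against at least 6.45 for Aspn and no more than 6.15 against at least 6.23 for Dcn. These are the Cilk1-/- libraries in which both genes were high against wild type, so the comparisons are not independent of each other. The adjusted p was 0.155 for Aspn and 0.191 for Dcn with the replicate block, and 0.124 and 0.156 where only the libraries of these 2 genotypes were fitted. With all compound mutant libraries placed in block 4, whose protocol text they share, it was 0.809 for Aspn and 0.822 for Dcn in limma.

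The mean of Fmod was 0.52 lower in the compound mutant than in Cilk1-/-, with overlapping libraries. The Cilk1-/- values are those by which Fmod was chosen, which favours a lower value elsewhere, so this difference is a description with no test. Apart from Fmod, Dcn and Aspn, the other 5 genes were not called, with differences of -0.49 for Omd, -0.33 for Ogn, -0.14 for Lum, -0.03 for Prelp and 0.03 for Bgn. In all, 2 of the 7 genes other than Fmod were called lower, where 0.388% of all genes were, and none was called higher, where 0.155% were. The mean was lower for 6 of the 7 and for 49.0% of all genes, and the libraries did not overlap on the lower side for 2 of the 7 and for 9.30% of all genes. With the replicate block none of the 7 was called (0.0119% of all genes were called lower), and 2 had an unadjusted p under 0.05 and reached a fold change of 1.5, where 0.961% of all genes did on the lower side. Without compound mutant library 3 Omd was called as well (-1.19, adjusted p = 0.0290 in limma), and the difference of Fmod was -0.72, a description with no test. Leaving out any of Cilk1-/- libraries 2 to 4 left 0 calls, and leaving out any of wild-type libraries 2 to 4 or compound mutant library 1 left 1. Among the libraries that share protocol text, all 3 compound mutant libraries were below Cilk1-/- library 4 for Fmod, Dcn and Aspn, with differences of -0.57, -0.89 and -1.01.

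**Figure D3:**
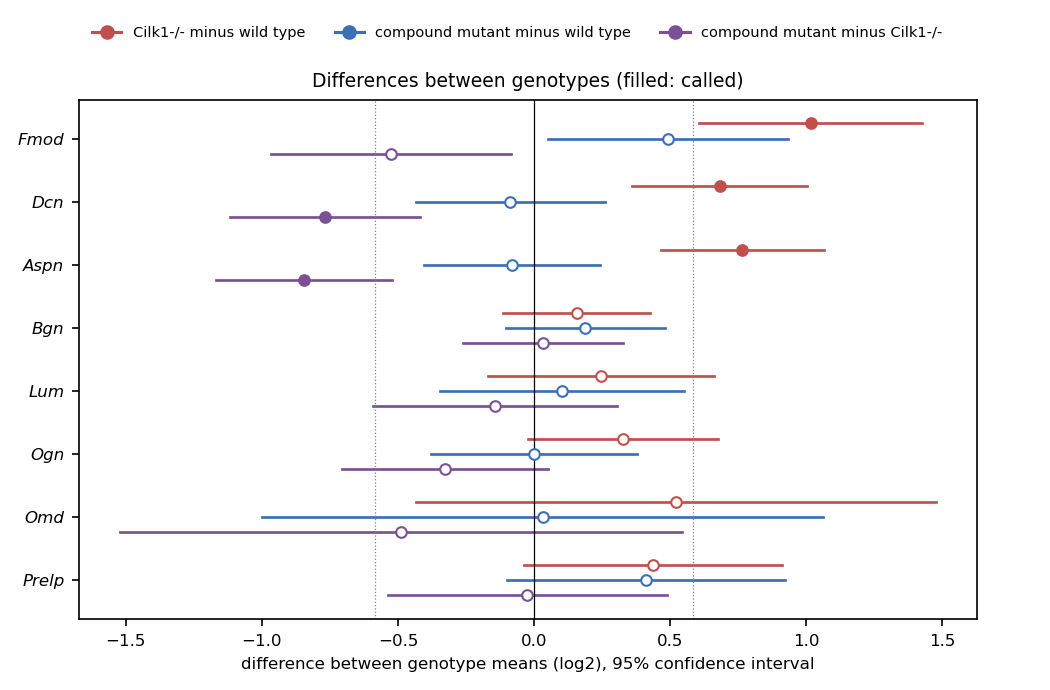
Difference between genotype means (x axis, log2) with its 95% confidence interval from limma for each of the 8 genes (y axis) in the 3 comparisons. Filled points were called, dotted lines mark a fold change of 1.5, and Dcn and Aspn are higher in Cilk1-/- against wild type, lower in the compound mutant against Cilk1-/- and near 0 in the compound mutant against wild type. The red point of Fmod is the difference by which that gene was chosen. Its other points use the same wild-type or Cilk1-/- libraries, so all points of Fmod are descriptions with no test.

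The makeup of the family pool differed between genotypes. Back-transformed values of the 8 genes summed to 440 to 545 in wild type, 493 to 702 in Cilk1-/- and 428 to 642 in the compound mutant, which was 0.123% to 0.158%, 0.138% to 0.202% and 0.117% to 0.187% of the sum over all genes. Bgn took 33.8% to 36.5% of the family sum in wild type, 28.1% to 30.7% in Cilk1-/- and 34.9% to 39.2% in the compound mutant. Dcn took 12.3% to 13.6%, 15% to 17.4% and 10.9% to 12%, and Aspn 12.3% to 14.7%, 16.3% to 17.6% and 11% to 12.8%. For these 3 genes Cilk1-/- did not overlap the other genotypes, including Cilk1-/- library 1. Fmod took 2.40% to 2.93% in wild type, 3.68% to 4.74% in Cilk1-/- and 3.42% to 3.78% in the compound mutant, so by share it stayed above wild type in every mutant library. These shares are descriptions, and the part of Fmod, Dcn and Aspn in them follows from the differences above. A larger share of some genes forces a smaller share of others. The mean level of Bgn itself was 7.55 in Cilk1-/- and 7.39 in wild type.

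Of 19 listed genes of other families within 200 kb of a member, 1 was called lower in Cilk1-/- against wild type, where 0.215% of all genes were. None was called higher there, and none was called in the other comparisons. The called gene was Dusp9, a MAP kinase phosphatase gene near Bgn, which fell by 0.62 (adjusted p = 0.0184 in limma). Differences of the 19 ranged from -0.62 to 0.43 with a median of 0.04. Cenpp, a centromere protein gene on the opposite strand, spans Aspn, Omd and Ogn and overlaps exons of Aspn. Its difference was -0.24 (adjusted p = 0.109 in limma), opposite in sign to that of Aspn, and whether the counting used strand is not given in the sources used here.

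**Figure D4:**
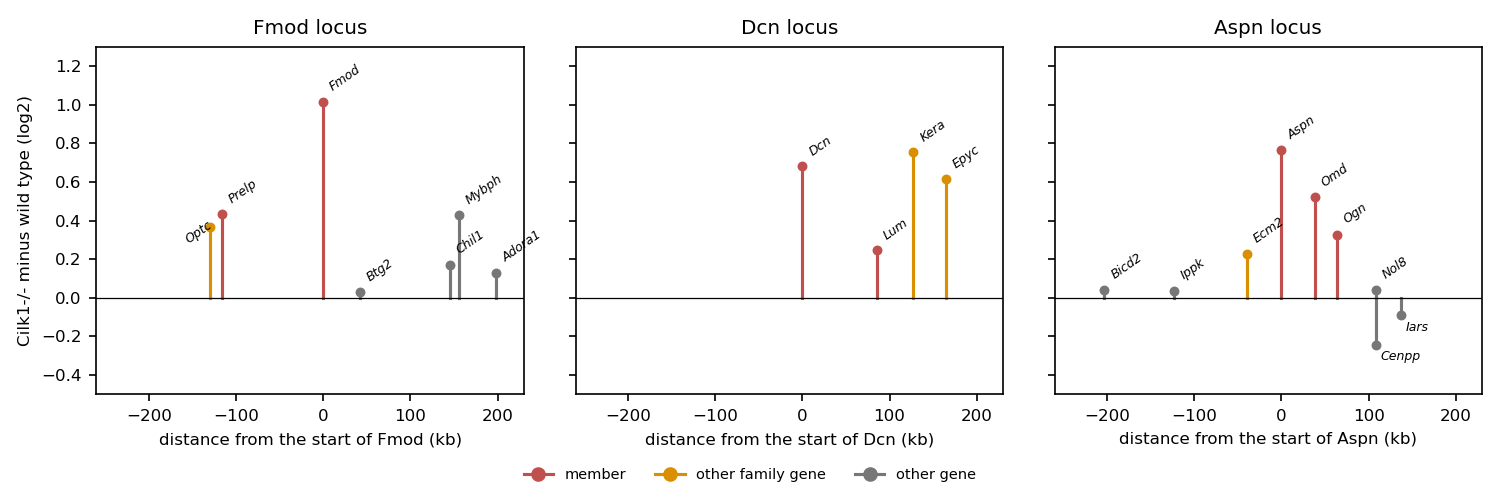
Difference between Cilk1-/- and wild type (y axis, log2) of each listed gene within 200 kb of Fmod, Dcn or Aspn, against the distance between gene starts (x axis, kb). Members are red, other genes of the family orange and the remaining genes grey. Family genes at each locus lie above 0, and grey genes lie on both sides, from -0.24 (Cenpp) to 0.43 (Mybph). No grey gene is listed near Dcn. The Bgn locus, which holds the called gene Dusp9, is not shown, and there Pnck (0.22) had a larger difference than Bgn (0.16).

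None of the 10 other genes of the wider family was called in any of the 3 comparisons. Kera and Epyc, which follow Lum on chromosome 10, differed by 0.75 and 0.62 between Cilk1-/- and wild type (adjusted p = 0.295 and 0.535 in limma), and Optc, next to Prelp, by 0.37 (adjusted p = 0.214 in limma). The median over the 10 was 0.20, with 7 higher, where 51.2% of all genes had a higher mean. Kera, the corneal and tendon proteoglycan keratocan, averaged 1.62 in wild type, 2.37 in Cilk1-/- and 1.32 in the compound mutant, and its difference of -1.05 between the compound mutant and Cilk1-/- had an adjusted p of 0.168 in limma. Epyc, Chad and Chadl, known from cartilage, had the largest differences between the compound mutant and wild type, at 1.36, 1.18 and 1.03 (adjusted p = 0.149, 0.107 and 0.145 in limma). In compound mutant library 1, Epyc was 3.53, against 0.80 and 0.70 in libraries 2 and 3. Chad was 3.43 in library 1, against 1.48 and 1.24, and Chadl was 3.49, against 1.32 and 1.58.

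Collagens that the proteoglycans bind showed few calls. Of 19 fibril-forming and fibril-associated collagen genes, 16 had a higher mean in Cilk1-/- (median difference 0.24), as 51.2% of all genes had, and none was called. Col12a1, a collagen of the fibril surface in ligament and tendon, averaged 5.51 in wild type and 5.98 in Cilk1-/- (adjusted p = 0.102 in limma), and fell in the compound mutant against Cilk1-/- by 0.68 (adjusted p = 0.0417 in limma, 0.191 with the replicate block). Col24a1, a collagen of bone, was the only one of the 19 called in the compound mutant against wild type, where it rose by 0.90 (adjusted p = 0.0302 in limma, 0.148 with the replicate block). Among 14 collagen VI and microfibril partners none was called in Cilk1-/- against wild type. In the compound mutant against wild type Fbn1, the microfibril protein fibrillin, fell by 0.72 (adjusted p = 0.00183 in limma, 0.0341 with the replicate block) and Matn4, a matrilin, rose by 1.35 (adjusted p = 0.0485 in limma, 0.166 with the replicate block). Col6a6 fell against Cilk1-/- by 0.68 (adjusted p = 0.0475 in limma, 0.215 with the replicate block).

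The enzymes that build the sugar chains of these proteins were called in no comparison, neither the 21 listed genes for chondroitin and dermatan sulfate nor the 9 for keratan sulfate and tyrosine sulfation. The summed back-transformed level of the latter was 97.6 to 104 in Cilk1-/- and 108 to 114 in wild type, so the groups did not overlap, and 7 of the 9 had a lower mean. Chst2, a sulfotransferase, had the largest of these differences (-0.37, adjusted p = 0.298 in limma). Of 18 genes for proteases and collagen maturation, Pcolce2, an enhancer of procollagen processing, was the only one called. It rose in the compound mutant by 0.68 against wild type (adjusted p = 0.0159 in limma, 0.118 with the replicate block) and by 0.95 against Cilk1-/- (adjusted p = 0.00915 in limma, 0.120 with the replicate block). None of 10 TGF-beta ligand, receptor and latent binding protein genes was called in any comparison.

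Markers of cell types that express these proteoglycans moved with them in part. The summed back-transformed level of 13 tendon and ligament markers was 76.1 to 93.4 in wild type, 110 to 135 in Cilk1-/- and 70.8 to 127 in the compound mutant, where library 3 was the highest. Of the 13, 11 had a higher mean in Cilk1-/-, where 51.2% of all genes had one. The libraries did not overlap, with Cilk1-/- higher, for 5 of the 13 and for 10.2% of all genes, but none was called. Thbs4 and Kera differed most (1.02 and 0.75), and Kera is itself a gene of the wider proteoglycan family. Scx, the transcription factor that defines the tendon lineage, differed by 0.19 (adjusted p = 0.739 in limma), against a list median of 0.33. Chodl, which is also expressed in other tissues, fell in the compound mutant by 1.08 against wild type (adjusted p = 0.0259 in limma, 0.111 with the replicate block) and by 1.42 against Cilk1-/- (adjusted p = 0.0148 in limma, 0.121 with the replicate block).

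The 14 fibroblast markers summed to 1579 to 2077 in wild type, 1692 to 2364 in Cilk1-/- and 1602 to 2229 in the compound mutant. Cilk1-/- library 1, the lowest of its group for 7 of the 8 proteoglycans, was also the lowest of its group for this list. That was not particular to fibroblast markers. The same library was lowest for endothelial markers (107), chondroitin and dermatan sulfate enzymes (231) and Hedgehog targets (217), among others. For some lists, such as skeletal muscle (78.4) and cartilage markers (64.5), it was the highest of its group. None of the 14 was called in Cilk1-/- against wild type. Of the 14, 9 had a lower mean in the compound mutant than in Cilk1-/-, and Mfap5, a microfibril gene, fell by 0.63 (adjusted p = 0.0281 in limma, 0.181 with the replicate block). Postn, a matrix gene of the periodontal ligament lineage, averaged 8.46 in wild type and 8.97 in Cilk1-/-, with an adjusted p of 0.168 in limma, and 8.48 in the compound mutant.

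Of 14 skeletal muscle markers 12 were listed, and all 12 had a higher mean in Cilk1-/- (median difference 0.64), where 51.2% of all genes had one, with none called. Their sum was 13.5 to 42.6 in wild type, 28.7 to 78.4 in Cilk1-/-, where library 1 was the highest, and 11 to 13.8 in the compound mutant. Against Cilk1-/- the compound mutant was lower for all 12, and 3 were called, Actc1 (-2.35), Acta1 (-1.71) and Myh3 (-1.52), none of them with the replicate block (adjusted p = 0.181, 0.218 and 0.192 in limma). The 9 listed cartilage markers summed to 41.4 to 52.5 in wild type, 53.5 to 64.5 in Cilk1-/- and 67.8 to 984 in the compound mutant, where library 1 was the highest. The part of muscle, tendon, fibroblast and cartilage tissue in the differences of the 8 genes was not tested. Dental mesenchyme markers, which define the labelled tissue, summed to 718 to 791 in wild type, 648 to 739 in Cilk1-/- and 415 to 733 in the compound mutant, and none of the 12 was at 0 in every library of a genotype.

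**Figure D5:**
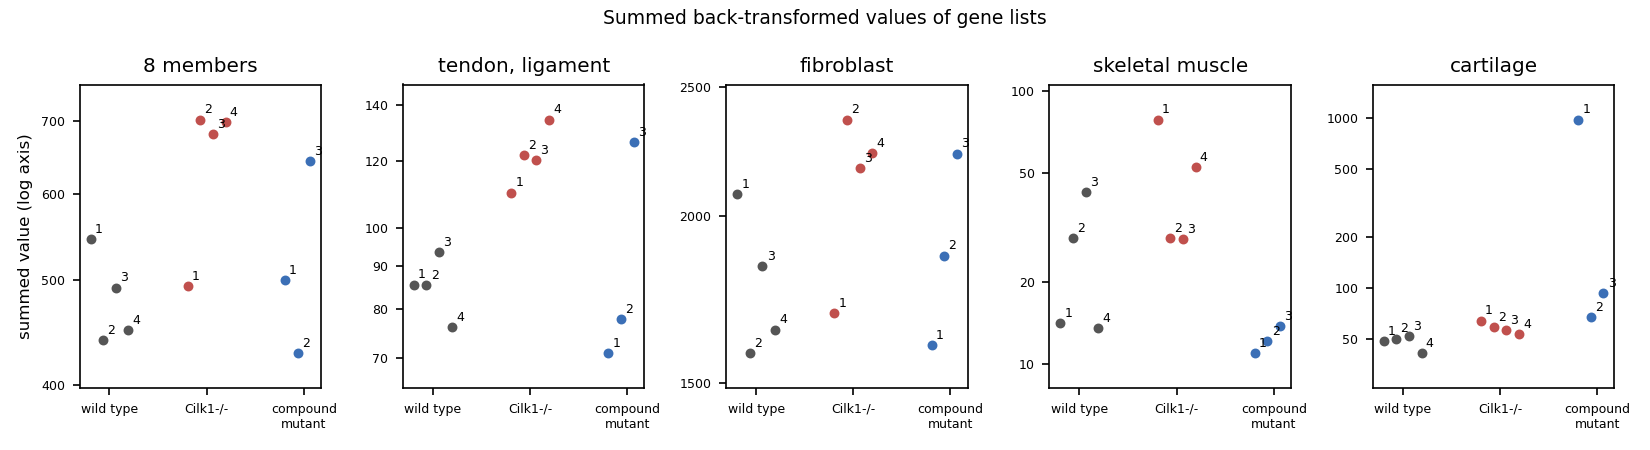
Summed back-transformed values (y axis, log scale) of the 8 proteoglycan genes and of 4 marker lists in every library, with 1 point per library and its replicate number beside it, by genotype (x axis). Tendon and ligament markers are higher in all 4 Cilk1-/- libraries than in wild type, and compound mutant library 3 is the highest of its group for the proteoglycans, tendon and fibroblast lists.

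The genes whose pattern was most like that of Fmod over the 11 libraries, among 13028 genes with a mean of at least 1, were Raph1, Cblb, A930005H10Rik, Shank1 and Spock2 (Pearson's r from 0.96 to 0.97). Spock2, a gene for a different kind of matrix proteoglycan, averaged 3.71 in wild type, 4.38 in Cilk1-/- and 4.23 in the compound mutant. Npnt, which encodes the matrix protein nephronectin, was most like Dcn (r = 0.99), and averaged 6.02, 6.46 and 5.90 in the 3 genotypes, and Arsg followed (r = 0.97). For Aspn the closest were Nudt6 (r = 0.97) and Dcn itself (r = 0.96). The closest for the others were Fam132a and Cd97 for Lum, Ism1 and Nucb2 for Bgn, 4933421O10Rik and Pik3cb for Ogn, Eps8l2 and Col7a1 for Omd, and Hpgd and Hif3a for Prelp (r from 0.94 to 0.99). These correlations are across libraries that share genotype and replicate number, and they are descriptions with no test.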

How the data were processed

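Bulk RNA-seq of E14.5 maxillary molar tooth germs was analysed from 1 deposited table of 16755 genes in 11 libraries. Reads were mapped to mm10 with HISAT2 2.0.5 and counted with featureCounts 1.5.0-p3, per the labels, and FPKM values were computed by the authors according to the methods. The deposited values are on a log2 scale, probably log2(FPKM + 1). 257 genes have a value below 0, which that formula cannot give, and the further step is not given in the sources used here. Counts were not used, so depth is unknown, and p-values measure only the spread between these libraries.

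limma 3.58.1 (R 4.3.3; lmFit, eBayes with trend and robust) was fitted to all genes and all 11 libraries, with the 3 genotypes as groups and no covariate. A trial on simulated data drew the libraries independently, so it does not cover the dependence between same-numbered libraries. Same-numbered wild-type and Cilk1-/- libraries correlated at -0.74, -0.89, -0.85 and -0.79 in their deviations from the genotype mean, against -0.01 to 0.39 for other numbers, so a fit with the number as a block is given beside calls it changes. Each compound mutant library was placed in the block of its number, and replicate-block values for the compound mutant rest on that placement.

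The 8 members and 21 gene lists were chosen with earlier results of these data known. Named are all members, every called gene of a list described and at most the 3 largest differences of a list in a comparison, the genes most like each member, and genes within 200 kb. Scx was named outside this rule, for its part in the tendon lineage. Adgre1 and Cnmd were found under older symbols. Gene positions are from GENCODE vM21 and promoters from RefSeq (GRCm38.p6). Alternatives were the block, a term for the protocol text (library set), only 2 genotypes, other moderation, a filter, a pseudocount of 0.1, other scalings and thresholds, and leaving out each library.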

Additional observations from a re-analysis of the deposited data

Results flagged for a closer look

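In 36 groups of 4 libraries (18 family genes in wild type and Cilk1-/-), the gap between the most extreme library and its nearest neighbour was divided by the range of the group, and 4 stood out by Dixon's criterion, where chance gives about 1 in 20. Dcn in wild-type library 1 (gap 0.898 of the range) was high, and Lum (0.885) and Bgn (0.846) in Cilk1-/- library 1 were low. The fourth was Chadl in Cilk1-/- library 3 (0.884), a gene outside the 8 that was singled out after its values were seen. The 3 proteoglycan values all come from libraries numbered 1, and same-numbered wild-type and Cilk1-/- libraries are not independent in the deposited values.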

How the results depend on the processing

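In Cilk1-/- against wild type, the 2 calls among the 7 genes other than Fmod (Dcn and Aspn) became 0 with the replicate block and with the compound mutant placed in block 4. They also became 0 with the library set as a term and with the block fitted on these 2 genotypes only, the last chosen after seeing the data. They ranged from 0 to 2 when 1 library was left out. In the compound mutant against wild type the 0 calls ranged from 0 to 1. In the compound mutant against Cilk1-/- the 2 calls became 0 with either block, with the library set or with only 2 genotypes. With 1 library left out they ranged from 0 to 4, and the 4 include Fmod, whose difference is a description. Of 488 recomputed differences of the 8 genes, 419 kept direction and side of the threshold, 49 lost a call, 3 gained one and 17 changed sign, and the cause was not tested. All sign changes were of uncalled differences. Against wild type, Ogn was 0.0195 with block 4 or the library set and 0.0291 with quantile normalization. With 1 library left out, the differences from wild type ran from -0.21 to 0.241 for Ogn, -0.21 to 0.0109 for Dcn, -0.19 to 0.0676 for Aspn, -0.0925 to 0.25 for Lum and -0.66 to 0.38 for Omd. Those from Cilk1-/- ran from -0.34 to 0.00563 for Lum, -0.12 to 0.12 for Bgn and -0.26 to 0.345 for Prelp. The most extreme values came without compound mutant library 1, 2 or 3. Of 1340 recomputed counts of called genes in the other lists, 1113 stayed within 1.5 times. The scalings and pseudocount moved the median of all genes by less than 0.01.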

Other observations

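Of the remaining marker lists, neuron genes had a higher mean in Cilk1-/- than in wild type for 10 of 10 (median 0.42, none called) and summed to 255 in compound mutant library 1, against 41.7 to 50.9 in wild type. Tubb3 (1.5) and Isl1 (0.95) were called higher in the compound mutant against wild type (adjusted p = 0.0268 and 0.0190 in limma, 0.127 and 0.0971 with the replicate block). Schwann cell and glia markers were higher in Cilk1-/- for 7 of 9. Over all genes, 51.2% had a higher mean in Cilk1-/- than in wild type. Endothelial (median 0.00350), macrophage (median 0.04) and pericyte and smooth muscle markers (median 0.06) had no call in Cilk1-/- against wild type. Osteoblast markers, of which 9 of 10 were listed, had a lower mean in 7 (median -0.49, none called), and their sums overlapped between genotypes.

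Krt15, a basal keratin, was the only one of 12 dental epithelium markers called in Cilk1-/- against wild type (0.63, adjusted p = 0.0436 in limma, 0.0846 with the replicate block), with overlapping libraries, and it fell in the compound mutant against Cilk1-/- by 1.06 (adjusted p = 0.00933 in limma, 0.0459 with the replicate block). Of 8 Hedgehog targets, Ptch1, Gli1, Foxf2 and Foxl1 were called lower in Cilk1-/- against wild type (differences from -1.31 to -0.75), and 0 were called with the replicate block. These 4, Hhip and Sostdc1 were called lower in the compound mutant against wild type (-1.69 to -0.88), 5 of them with the replicate block (Foxl1 had an adjusted p of 0.0871 in limma there). The summed level of the 8 targets was 411 to 434 in wild type, 217 to 257 in Cilk1-/- and 114 to 218 in the compound mutant. None was called in the compound mutant against Cilk1-/-, and 7 of 8 had a lower mean (median -0.44).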
